A study of Mus musculus with 51 samples.

Results

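The cells described here are MIN6 cells and SV40-transformed mouse embryonic fibroblasts (SV40 MEFs), each carrying an empty retroviral vector. They were chosen by sample title, 3 arrays titled MIN6 empty vector OE and 3 titled MEFs empty vector OE, which makes 6 of the 51 arrays of a series on HMGN proteins. MIN6 is an insulinoma line of beta cell character that was derived from transgenic mice with SV40 T antigen under an insulin promoter, so the viral oncogene is background to both lines. Both lines were grown in DMEM with 10% FCS, infected in the presence of 5 µg/ml polybrene, selected with 1 µg/ml puromycin for 7 days and kept for 24 h without selection before RNA was taken, per the labels' protocols. The selected cells were pools and not clones, and neither group carried an HMGN construct. The SV40 MEFs came from ATCC. As a second fibroblast baseline, 9 arrays of primary MEFs of strain C57BL/6 were used, 3 from each of the groups labelled HMGN1 WT, HMGN3 WT and HMGN5 WT. The labels attach the infection protocol to these arrays too and name no construct for them. Nothing in the labels ties the arrays of a group to separate cultures, so p-values measure the spread between arrays, which may be technical.

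Beta cells make insulin, pack it with granins, amylin and zinc into dense-core granules, and release it when glucose metabolism closes potassium channels and calcium enters the cell. They share much of this secretory apparatus with neurons, and a set of homeodomain and other transcription factors keeps the lineage. Fibroblasts instead secrete collagen-rich matrix, hold stress fibres and respond to tension through SRF and through the YAP and TAZ coactivators of TEAD factors. Chromatin proteins are used in all of these cells, and some of their complexes change a subunit for a paralog when a lineage matures.

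The deposited intensities had medians of 55.4 to 56.7 per MIN6 array and 19.1 to 19.5 per SV40 MEF array, so the 2 sets of arrays lie on different scales. Every value below is therefore a percentile rank, the position of a probe set among the 45037 non-control probe sets of its own array (0 lowest, 100 highest), and a difference is given in percentile points with its standard error (SE). Cell line, array set and normalization cannot be told apart in this design. The rank correlation was 0.9946 to 0.997 between MIN6 arrays, 0.9935 to 0.9942 between SV40 MEF arrays and 0.8417 to 0.8452 between the lines. It was 0.798 to 0.8073 between MIN6 and primary MEF WT arrays. A rank depends on the affinity of its probes, so ranks were compared between cells and not between genes. Of 72 chemosensory receptor genes, taken as a background list that neither line is known to use, 62 lay below the 40th percentile in both lines. The highest gene mean of this list was 61.5 in MIN6 cells and 68.5 in SV40 MEFs, so a rank above 40 alone does not show expression. Ranks below 40 were not told apart from background here, and a difference with 1 side below 40 counts in part the order of background probe sets. Genes below 40 in both lines were left out, and 1 probe set stood for each of the 13977 genes tested with limma. A gene below 40 in 1 line thus passed only through its rank in the other. At a Benjamini-Hochberg adjusted p below 0.05, 11698 genes (83.7%) differed, 5374 (38.4%) higher and 6324 (45.2%) lower in MIN6 cells. On log2 intensity minus the array median the split was 4361 higher and 7739 lower. A call alone thus says little of a list, and a difference called at 20 points or more is termed large below. The large differences were 2266 genes (16.2%), 1406 (10.1%) higher and 860 (6.15%) lower in MIN6 cells. Against primary MEF WT, 12600 of 14239 genes differed (88.5%), 6588 higher (46.3%) and 6012 lower (42.2%), or 4395 higher and 8272 lower on log2 intensity minus the array median, with large differences for 1354 higher (9.51%) and 1422 lower (9.99%). Both comparisons use the same MIN6 arrays and their values are given side by side. The groups of primary MEF WT arrays were fitted apart, and the reference is the mean of their group means. The SE and p-values against primary MEF WT thus hold only the spread between arrays within a group. They leave out the spread between the WT groups and can understate the uncertainty of a difference from primary MEFs.

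**Figure D1:**
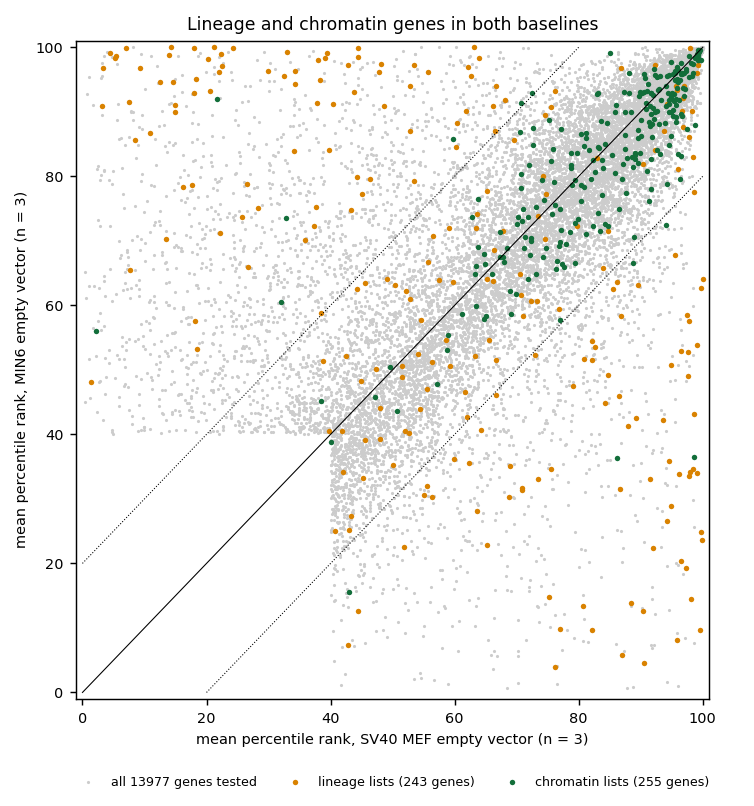
Mean percentile rank of each gene tested in MIN6 cells (vertical axis) and SV40 MEFs (horizontal axis), n = 3 arrays each. Dotted lines mark a difference of 20 points. The empty corner holds genes below the 40th percentile in both lines. Of the lineage list genes, 82 of 243 tested were higher and 73 lower by a large difference, and of the chromatin list genes 7 and 5 of 255.

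Islet hormone and granule genes stood at the top of the MIN6 arrays. Of the 22 genes of this list with a probe set, 18 were higher in MIN6 cells, 17 of them by a large difference, 4 were lower, and the median difference was 52.3 points against -0.61 over all genes tested. In SV40 MEFs 11 of the 22 had a mean below 40 and passed the filter only through their MIN6 rank. Ins2, which encodes insulin 2, ranked at 100, 100 and 100 in the MIN6 arrays and at 62.0, 63.4 and 64.0 in the SV40 MEF arrays, a difference of 36.9 ± 0.60 points (SE, n = 3 each, limma adjusted p = 3.12e-10). The probe set of Ins2 thus lay above rank 40 in SV40 MEFs, but not above the highest mean of the background list there (68.5). The primary MEF WT arrays ranged over 67.0 to 71.9 (median 68.7). Whether fibroblasts express Ins2 was not tested. Iapp, the gene of amylin, stood at 100, 100 and 100 in MIN6 cells against 12.9, 16.6 and 13.1 in SV40 MEFs (85.8 ± 1.17 points, adjusted p = 1.66e-10). The granins Chga, Chgb, Scg2 and Scg5 package hormones in dense-core granules. Chga had 99.97, 99.97 and 99.97 in MIN6 cells and 20.8, 22.3 and 20.5 in SV40 MEFs, and Chgb had 99.8, 99.8 and 99.8 in MIN6 cells and 18.1, 21.4 and 14.5 in SV40 MEFs. Scg5, the chaperone of prohormone convertase 2, had 99.2, 99.1 and 99.2 in MIN6 cells and 2.57, 1.57 and 9.34 in SV40 MEFs (94.7 ± 1.92 points). G6pc2, the islet glucose-6-phosphatase, differed by 92.8 ± 1.02 points and Slc30a8, the granule zinc transporter, by 77.9 ± 0.97 points. In each of these genes the lowest MIN6 array lay above the highest SV40 MEF array. The share of all genes tested with such a separation was not counted, and 83.7% of them were called.

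Hormones of other islet cells split. Gcg, the glucagon gene of alpha cells, had 98.4, 98.3 and 98.2 in MIN6 cells against 2.99, 7.43 and 5.25 in SV40 MEFs, and Sst, the somatostatin gene of delta cells, had 96.3, 96.2 and 96.0 against 55.8, 57.7 and 53.8. Both were thus high in the MIN6 arrays with an empty vector. Sst stood apart across MIN6 pools: it ranked at 48.0 to 52.6 in the 3 arrays with the HMGN3a construct, below the 3 SV40 MEF arrays with a vector, and at 96.0 to 96.6 with the HMGN1 construct. Ppy, the pancreatic polypeptide gene, had 37.4, 46.0 and 38.4 in MIN6 cells and 52.9, 52.8 and 50.4 in SV40 MEFs and was lower (-11.4 ± 2.22 points, adjusted p = 0.00119). Ghrl, the ghrelin gene, was lower by a large difference (-23.5 ± 1.83 points), as was Pam (-39.4 ± 1.90 points), with 48.7, 40.1 and 45.5 in MIN6 cells and 84.4, 84.4 and 83.9 in SV40 MEFs. Pam encodes the enzyme that amidates peptide hormones such as amylin. Cpe, the carboxypeptidase that trims prohormones, was at 99.8 ± 0.03 in MIN6 cells and 98.0 ± 0.15 in SV40 MEFs (SD, n = 3 each), near the top of both lines.

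Among the granule genes, 4 share the cyclic AMP response element TGACGTCA, a palindrome bound by CREB family factors, in the 250 bases before the gene's start. They were Scg2, Chgb, Pcsk1, which encodes prohormone convertase 1, and Sst, and each was higher in MIN6 cells by a large difference (75.8 ± 1.45, 81.8 ± 1.59, 59.7 ± 1.55 and 40.4 ± 0.96 points). The windows are from RefSeq in build GRCm38.p6, written 5′ to 3′ on the gene's strand, with the motif in capitals.
Scg2, chr1:79440027-79440276, minus strand: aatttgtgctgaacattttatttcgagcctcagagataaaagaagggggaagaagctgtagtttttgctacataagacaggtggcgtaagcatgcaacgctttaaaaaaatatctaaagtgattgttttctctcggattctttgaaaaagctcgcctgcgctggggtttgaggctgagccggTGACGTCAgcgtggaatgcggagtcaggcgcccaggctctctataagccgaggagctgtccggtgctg
Chgb, chr2:132781392-132781641, plus strand: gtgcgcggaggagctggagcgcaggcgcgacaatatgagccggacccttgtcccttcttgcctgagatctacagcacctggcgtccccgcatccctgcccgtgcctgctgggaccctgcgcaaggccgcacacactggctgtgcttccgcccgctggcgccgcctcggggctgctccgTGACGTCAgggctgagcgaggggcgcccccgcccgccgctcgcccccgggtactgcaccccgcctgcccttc
Pcsk1, chr13:75089607-75089856, plus strand: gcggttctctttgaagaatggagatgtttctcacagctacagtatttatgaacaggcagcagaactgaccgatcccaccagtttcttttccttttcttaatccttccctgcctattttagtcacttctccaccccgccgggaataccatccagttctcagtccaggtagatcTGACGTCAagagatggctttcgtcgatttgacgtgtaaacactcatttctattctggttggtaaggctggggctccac
Sst, chr16:23890845-23891094, minus strand: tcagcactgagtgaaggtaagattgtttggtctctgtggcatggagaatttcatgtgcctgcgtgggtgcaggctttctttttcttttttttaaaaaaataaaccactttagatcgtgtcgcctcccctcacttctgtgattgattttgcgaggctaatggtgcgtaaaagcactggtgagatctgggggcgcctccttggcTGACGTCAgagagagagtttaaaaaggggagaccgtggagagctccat
The motif lies 68, 72, 78 and 48 bases before the start in this order of genes. It is present in 4 of the 25 windows of the list (16.0%), which belong to 18 genes, and in 1.55% of all 32851 windows. It is also in 2 of the 20 windows of the neuron-like genes described below (10.0%). The motifs shown here and below were picked from 14 searched on both strands after the matches were seen, and a match is a description of the letters only.

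The islet transcription factors followed the same direction. Of 26 listed genes, 20 had a probe set and 18 passed the filter on low ranks, of which 17 were higher in MIN6 cells, 13 by a large difference, and 0 lower. Pdx1, the homeodomain factor that sets pancreas identity and drives insulin transcription, had 95.2, 93.4 and 94.4 in MIN6 cells and 38.6, 36.2 and 27.9 in SV40 MEFs (60.1 ± 2.41 points, adjusted p = 3.53e-08). Nkx2-2 had 97.0, 96.7 and 96.8 against 12.8, 5.83 and 9.36 and Neurod1 had 96.3, 96.3 and 95.7 against 27.5, 21.0 and 17.3. The first is a homeodomain factor of endocrine commitment and the second a basic helix-loop-helix factor that binds the insulin promoter. Nkx6-1, which sets beta cells apart from alpha cells, stood at 94.7, 92.1 and 92.2 in MIN6 cells and 43.3, 42.1 and 45.8 in SV40 MEFs. Insm1, Mnx1, Foxa2 and Isl1 differed by 82.0 ± 1.53, 84.0 ± 1.70, 63.0 ± 1.30 and 59.2 ± 0.81 points. Pax6 differed by 54.4 ± 0.71 points, although its 5 probe sets did not all run the same way (-0.86 to 77.8 points). Neurog3, the factor of endocrine progenitors, was below the filter in both lines, with a mean rank of 25.1 in MIN6 cells and 31.9 in SV40 MEFs. Gata6 was the other factor below the filter, with 20.25 and 35.5, and it was lower than in primary MEF WT (-47.1 ± 0.71 points). In SV40 MEFs 13 of the 20 factors had a mean below 40 and could pass only through their MIN6 rank. The count of 0 lower depends in part on this filter. Apart from Neurog3 and Gata6, each factor named above had its 3 MIN6 arrays above its 3 SV40 MEF arrays, a separation not counted over all genes tested. Onecut1, of the same list, had arrays that overlapped and was not called (0.81 ± 1.62 points).

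**Figure D2:**
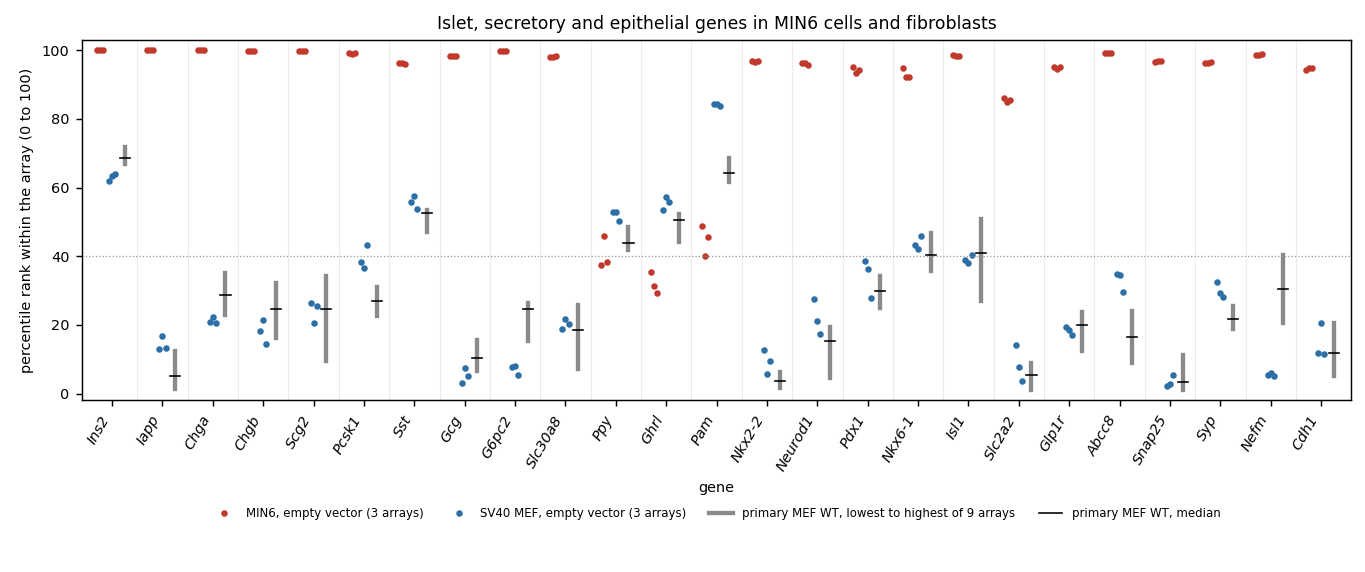
Percentile rank of 25 islet, secretory, neuronal and epithelial genes in each MIN6 array, each SV40 MEF array and the 9 primary MEF WT arrays (bar from lowest to highest, line at the median). The dotted line marks rank 40. Ppy, Ghrl and Pam are the genes shown here whose MIN6 arrays lie below the SV40 MEF arrays.

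Genes of glucose sensing and incretin signalling were higher in MIN6 cells for 10 of 13 tested genes, 7 by a large difference, and lower for 3. Slc2a2, the glucose transporter GLUT2, had 86.1, 85.0 and 85.5 in MIN6 cells and 14.0, 7.77 and 3.76 in SV40 MEFs (77.0 ± 2.32 points). Glp1r, the receptor for glucagon-like peptide 1, had 95.1, 94.6 and 95.3 against 19.4, 18.5 and 17.1. The channel that closes on ATP has a sulfonylurea receptor subunit, Abcc8 (66.3 ± 1.37 points), and a pore subunit, Kcnj11. Kcnj11 was at 87.9, 86.7 and 86.4 in MIN6 cells, 66.4, 67.3 and 65.9 in SV40 MEFs and 78.2 to 81.8 (median 79.5) in primary MEF WT, so its large difference from SV40 MEFs (20.4 ± 0.69 points) was smaller against primary MEFs (7.30 ± 0.47 points). Slc2a2 was lower in both MIN6 construct pools (70.2 to 78.1) than in the vector arrays.

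A list of 12 genes that beta cells are known to hold low had 8 of 11 tested genes lower in MIN6 cells, 4 by a large difference, and 2 higher. Against primary MEF WT, 10 of 12 were lower and 2 higher. Lower did not always mean low: Slc16a1 and Acot7 had MIN6 means of 92.1 and 94.0, and Oat, which was higher, had 96.8. Slc16a1 was lower than in SV40 MEFs (-4.68 ± 0.38 points) and higher than in primary MEF WT (5.60 ± 0.40 points). Hk2, a hexokinase of high glucose affinity, had 44.5, 40.9 and 42.2 in MIN6 cells and 89.7, 88.9 and 89.2 in SV40 MEFs (-46.7 ± 1.03 points). Zfp36l1, an RNA-binding decay factor, had 13.0, 14.4 and 13.9 against 88.1, 88.7 and 88.6 (-74.7 ± 0.96 points). Ldha, the lactate dehydrogenase whose low level is a textbook trait of primary beta cells, did not follow. It had 99.3, 99.1 and 99.1 in MIN6 cells and 99.2, 99.2 and 99.2 in SV40 MEFs, a difference of -0.04 ± 0.09 points that was not called (adjusted p = 0.683). At such ranks the scale matters. On log2 intensity minus the array median the difference of Ldha was -0.99 (limma adjusted p = 2.49e-10). This scale does not equalize the spread of the arrays, so the median over all genes tested (-0.32) is no yardstick for genes near the top. On log2 values quantile normalized between the lines, Ldha was again not called.

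Vesicle release genes and genes better known from neurons were a prominent part of the MIN6 profile. Of 20 tested exocytosis genes, 19 were higher in MIN6 cells, 13 by a large difference, and 1 was lower. In SV40 MEFs 10 of the 22 exocytosis genes with a probe set had a mean below 40. Those of them that were tested passed only through their MIN6 rank. Cadps2 and Doc2b were below the filter in both lines, with means of 8.29 and 23.8 in MIN6 cells and 20.5 and 26.1 in SV40 MEFs. Snap25, a SNARE of the plasma membrane, had 96.6, 96.9 and 96.8 in MIN6 cells and 2.08, 2.78 and 5.29 in SV40 MEFs (93.3 ± 1.16 points), and Cadps, which primes dense-core vesicles, differed by 87.7 ± 1.29 points. The calcium sensors Syt4, Syt13 and Syt7 differed by 74.98 ± 2.00, 54.0 ± 0.85 and 28.0 ± 1.04 points. Of 22 tested neuron-like genes, 21 were higher, 19 by a large difference, and 1, Gad1, was lower (-17.9 ± 2.00 points). In SV40 MEFs 12 of these 22 had a mean below 40 and passed only through their MIN6 rank. The neurofilament subunits Nefm and Nefl had 98.7 ± 0.14 and 98.8 ± 0.08 in MIN6 cells, against 5.48 ± 0.34 and 13.9 ± 1.11 in SV40 MEFs. Syp, a synaptic vesicle membrane protein, differed by 66.4 ± 1.14 points, Elavl4, a neuronal RNA-binding protein, by 75.9 ± 1.30 points, and Gad2, the GABA-making enzyme that beta cells also hold, by 57.9 ± 1.55 points. Other probe sets of some of these genes gave smaller differences. Those of Syp ran from 3.92 to 66.4 points, of Gad2 from 19.8 to 57.9 and of Syt7 from 5.12 to 28.0. Stmn2 and the vesicle GTPase gene Rab3c differed by 31.4 ± 1.5 and 34.8 ± 2.56 points in the vector arrays, and in the HMGN3a pool of MIN6 cells their medians were 47.1 and 22.1, with arrays that overlapped those of SV40 MEFs with the vector.

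Rest encodes the repressor that silences neuronal genes outside neurons by binding the RE1 element. Rest had 39.3, 34.1 and 35.6 in MIN6 cells, 86.7, 86.2 and 85.5 in SV40 MEFs and 89.9 to 91.2 (median 90.9) in primary MEF WT, a difference between the lines of -49.8 ± 1.35 points (adjusted p = 3.38e-09). All 4 of its probe sets were lower in MIN6 cells (-60.6 to -27.1 points). The left part of the RE1 element, TTCAGCACC, occurs in the promoter windows of 2 neuron-like genes, Syn1, a synaptic vesicle phosphoprotein, and Celsr3, a cadherin of axon guidance. The windows are printed with that part in capitals, from the same source.
Syn1, chrX:20920919-20921168, minus strand: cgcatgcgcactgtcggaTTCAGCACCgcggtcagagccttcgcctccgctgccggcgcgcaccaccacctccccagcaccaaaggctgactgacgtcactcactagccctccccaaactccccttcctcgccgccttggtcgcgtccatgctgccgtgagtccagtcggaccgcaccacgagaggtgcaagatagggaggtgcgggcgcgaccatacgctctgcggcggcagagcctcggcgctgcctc
Celsr3, chr9:108825795-108826044, plus strand: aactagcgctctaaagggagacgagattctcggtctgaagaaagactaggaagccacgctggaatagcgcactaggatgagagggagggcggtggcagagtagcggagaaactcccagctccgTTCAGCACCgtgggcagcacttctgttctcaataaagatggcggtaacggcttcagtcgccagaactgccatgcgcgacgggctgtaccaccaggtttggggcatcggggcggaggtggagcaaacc
This part of the element is in 2 of the 20 windows of the list (10.0%) and in 0.301% of all windows. The right part, GGACAGC, is in 2 of the 20 windows of the list (10.0%) and in 5.28% of all windows, and the 2 parts joined are in 0 of the 20 windows. The joined parts were searched as an exact match with 2 free bases between them. In both windows printed above, the left part is followed by a right part that differs from this match at a single base. Such near matches were not counted in any window. Syn1 had 91.5, 90.6 and 90.8 in MIN6 cells and 65.4, 67.3 and 65.7 in SV40 MEFs (24.8 ± 0.68 points), and Celsr3 had 76.5, 75.2 and 74.1 against 43.0, 38.0 and 32.0 (37.6 ± 2.4 points). Both were higher in MIN6 cells. Rcor3, a REST corepressor paralog, was also higher (20.4 ± 0.66 points, and 16.6 ± 0.55 points from primary MEF WT), although its 6 probe sets ran from -0.89 to 25.8 points, while Rcor1 and Rcor2 were lower (-3.21 ± 0.34 and -6.48 ± 0.93 points).

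Epithelial genes were mixed. Of 24 tested, 15 were higher in MIN6 cells, 11 by a large difference, and 5 were lower. Cdh1, the epithelial cadherin, had 94.2, 94.9 and 94.9 in MIN6 cells and 11.9, 20.5 and 11.5 in SV40 MEFs (80.02 ± 2.22 points). Esrp1, an epithelial splicing regulator, differed by 75.02 ± 2.18 points, and the simple-epithelium keratins Krt8 and Krt18 by 48.3 ± 0.70 and 56.8 ± 2.56 points. Krt18 had 71.0, 69.97 and 69.7 in MIN6 cells, 15.5, 17.8 and 7.11 in SV40 MEFs and 61.9 to 72.9 (median 65.2) in primary MEF WT, so its MIN6 arrays lay within the primary range. Its difference from primary MEF WT was 3.32 ± 0.75 points (limma adjusted p = 0.00103), with an SE that leaves out the spread between the WT groups. On log2 intensity minus the array median the difference was 0.17 and not called (limma adjusted p = 0.0889). Krt7 and Krt19 mark pancreatic ducts, and they ran apart: Krt7 had 96.6, 96.3 and 96.2 in MIN6 cells and 31.8, 36.1 and 34.7 in SV40 MEFs, whereas Krt19 had 29.4, 31.1 and 30.5 in MIN6 cells and 69.3, 68.5 and 68.5 in SV40 MEFs (-38.4 ± 1.02 points).

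In each fibroblast list most tested genes were lower in MIN6 cells. Of 28 tested extracellular matrix genes, 25 were lower in MIN6 cells, 22 by a large difference, 2 were higher, and the median difference was -41.4 points. In MIN6 cells 22 of the 33 matrix genes with a probe set had a mean below 40. Of these, 5 were below the filter in both lines, and the others passed only through their SV40 MEF rank. Col1a1, which encodes a chain of type I collagen, had 37.0, 34.4 and 30.3 in MIN6 cells against 96.2, 96.0 and 96.1 in SV40 MEFs, and Col1a2, its partner chain, had 35.5, 38.5 and 33.7 in MIN6 cells against 95.1, 94.2 and 94.1 in SV40 MEFs. These MIN6 ranks all lie in the background range. Fn1, fibronectin, had 50.1, 52.3 and 49.97 in MIN6 cells and 95.1, 94.9 and 94.7 in SV40 MEFs (-44.1 ± 0.82 points), and Col4a2, a basement membrane collagen chain, was lower by -76.0 ± 1.10 points. Among 20 tested mesenchymal surface and filament genes, 19 were lower, 14 by a large difference, and 0 higher. Vim, the mesenchymal intermediate filament, had 23.2, 26.5 and 24.8 in MIN6 cells and 99.7, 99.7 and 99.7 in SV40 MEFs (-74.8 ± 0.99 points, adjusted p = 1.66e-10). Anxa1, S100a6 and the receptor kinase Axl differed by -89.7 ± 1.46, -76.3 ± 1.26 and -83.6 ± 0.82 points. Among 27 tested mesenchymal transcription factors, 21 were lower, 16 by a large difference, and 5 were higher, none by a large difference. Twist1, a basic helix-loop-helix factor of mesenchyme, had 13.4, 9.51 and 6.10 in MIN6 cells and 81.2, 83.4 and 81.8 in SV40 MEFs, and Prrx2, a homeodomain factor of limb and face mesenchyme, had 3.41, 6.27 and 3.97 against 91.3, 90.3 and 89.8. Of the 33 Hox genes, 14 were below the filter in both lines, 13 were lower in MIN6 cells, 5 by a large difference, and 1 higher, and Hoxc13 differed by -39.5 ± 1.92 points.

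The SV40 MEFs with an empty vector did not show the whole fibroblast profile of primary cells. Of 74 matrix, surface and contractile genes with a probe set, 13 had an SV40 MEF mean below 60 while all 9 primary MEF WT arrays stood at 80 or above. Postn, a matricellular protein, had 26.8, 31.0 and 26.8 in MIN6 cells, 32.7, 35.7 and 32.8 in SV40 MEFs and 99.2 to 99.7 (median 99.7) in primary MEF WT, and it was left out of the first comparison because both lines lay below rank 40. Thbs2, Lox, which crosslinks collagen, Fap, a fibroblast surface protease, and Myl9, a myosin light chain, showed the same picture, with SV40 MEF means of 23.6, 39.1, 11.1 and 24.6 and primary MEF WT medians of 98.6, 99.5, 88.8 and 99.5. Other SV40 MEF pools differed from the vector pool for several of the 13 genes. Over the 21 arrays with an HMGN construct, Lox ranged over 34.6 to 94.4, Cdh11 over 20.2 to 90.4, Fbln2 over 45.1 to 98.3, Nid1 over 38.2 to 90.1 and Timp3 over 25.9 to 89.8, whereas Thbs2 and Fap stayed at 18.8 to 43.9 and 9.48 to 25. Pdgfra, a defining marker of fibroblasts, had 29.6, 30.9 and 28.1 in MIN6 cells, 30.6, 30.4 and 30.8 in SV40 MEFs and 80.8 to 90.2 (median 85.3) in primary MEF WT. The 2 matrix genes that were higher in MIN6 cells than in SV40 MEFs were lower than in primary MEF WT. Col6a3, a collagen VI chain, had 94.0, 93.8 and 94.0 in MIN6 cells, 55.2, 48.8 and 54.2 in SV40 MEFs and 99.3 to 99.5 (median 99.4) in primary MEF WT, with differences of 41.2 ± 1.5 and -5.48 ± 0.06 points. Fbln5, an elastic fibre protein, differed by 33.3 ± 2.24 points from SV40 MEFs with the vector and by -19.2 ± 0.11 from primary MEF WT. Fbln5 stood at 79.8, 79.7 and 79.4 in MIN6 cells with the vector and at 79.9 to 83.2 in SV40 MEFs with the HMGN5 construct, so in that pool it was not below MIN6 cells.

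**Figure D3:**
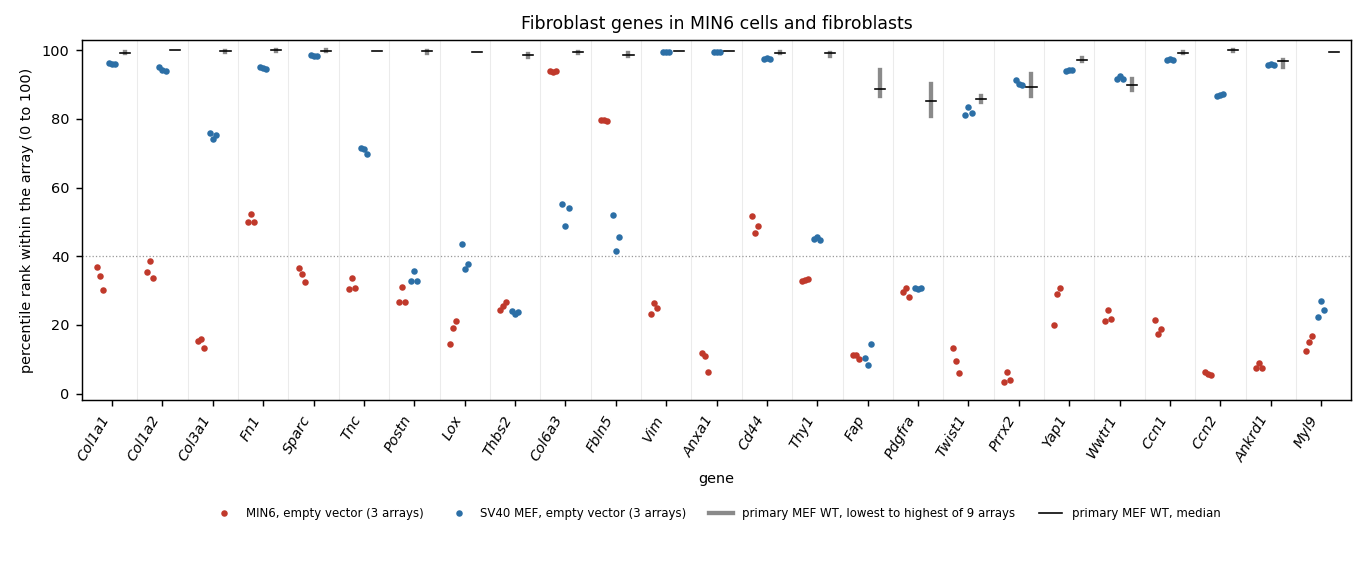
Percentile rank of 25 fibroblast genes in each MIN6 array, each SV40 MEF array and the 9 primary MEF WT arrays (bar from lowest to highest, line at the median). The dotted line marks rank 40. Postn, Thbs2, Fap, Pdgfra and Myl9 are below it in both lines and between 80.8 and 99.7 in primary MEF WT.

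Contractile genes and targets of SRF or of YAP were lower in all 19 tested members, 9 by a large difference. Yap1, which encodes YAP, had 19.8, 29.0 and 30.8 in MIN6 cells against 94.1, 94.3 and 94.3 in SV40 MEFs (-67.7 ± 2.49 points). Wwtr1, which encodes TAZ, had 21.1, 24.2 and 21.7 in MIN6 cells against 91.7, 92.6 and 91.8 in SV40 MEFs (-69.7 ± 1.07 points). Tead1, a DNA-binding partner of both, stayed at a high rank in MIN6 cells, with 88.2, 86.2 and 86.7, against 93.6, 93.8 and 93.8 in SV40 MEFs (-6.72 ± 0.46 points, called). The YAP targets Ccn1, Ccn2 and Ankrd1 had means of 19.2 ± 2.04, 5.78 ± 0.53 and 8.06 ± 0.85 in MIN6 cells, against 97.3 ± 0.16, 87.0 ± 0.24 and 95.9 ± 0.07 in SV40 MEFs (SD, n = 3 each). Of the contractile genes, Acta2 and Tagln had means of 58.3 and 53.6 in MIN6 cells, 86.7 and 82.6 in SV40 MEFs, and primary MEF WT medians of 99.99 and 99.97. The core of the element bound by TEAD factors, GGAATG, is printed in capitals in the windows of Ankrd1, where it occurs 2 times, and of Ccn1, where the reverse complement CATTCC occurs once.
Ankrd1, chr19:36119845-36120094, minus strand: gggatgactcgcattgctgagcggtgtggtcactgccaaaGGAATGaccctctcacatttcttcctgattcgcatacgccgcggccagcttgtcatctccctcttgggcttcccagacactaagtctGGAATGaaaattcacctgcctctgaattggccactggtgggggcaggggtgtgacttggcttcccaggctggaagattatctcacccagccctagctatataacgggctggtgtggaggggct
Ccn1, chr3:145649986-145650235, minus strand: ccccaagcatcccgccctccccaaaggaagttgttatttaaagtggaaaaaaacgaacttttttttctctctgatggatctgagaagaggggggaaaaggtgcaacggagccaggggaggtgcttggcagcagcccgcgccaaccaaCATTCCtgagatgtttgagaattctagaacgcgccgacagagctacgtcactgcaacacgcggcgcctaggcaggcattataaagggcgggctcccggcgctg
This core is in 9 of the 19 windows of the list (47.4%) and in 12.6% of all windows. It is also in 6 of the 25 windows of islet hormone and granule genes (24.0%), which were mostly higher in MIN6 cells.

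The labels of both lines were read against markers of cell types. All 8 beta cell markers with a probe set were higher in MIN6 cells by a large difference, and their summed linear level, in units of the array median, was 892 to 926 per MIN6 array and 4.71 to 4.87 per SV40 MEF array. Of 8 tested fibroblast markers, 7 were lower in MIN6 cells, 6 by a large difference, and the sum over the 10 markers with a probe set was 6.24 to 6.66 in MIN6 cells and 708 to 731 in SV40 MEFs. In MIN6 cells 8 of the 10 were below rank 40, and in SV40 MEFs 2 were, Pdgfra and Lum. Of 4 tested alpha cell markers 2 were higher and 2 lower, with a sum of 253 to 267 in MIN6 cells and 12.1 to 13.0 in SV40 MEFs. Of 5 tested delta and PP cell markers 1, Sst, was higher and 4 were lower, with a sum of 33.6 to 36.4 in MIN6 cells and 6.52 to 7.25 in SV40 MEFs. Of the duct markers 1 of 4 tested was higher in MIN6 cells and 3 lower, although the sum was 35.0 to 36.6 in MIN6 cells and 7.64 to 8.33 in SV40 MEFs. Of the acinar markers 2 of 5 were higher and 3 lower, with a sum of 12.9 to 14.6 in MIN6 cells and 8.87 to 8.97 in SV40 MEFs. A linear sum can rest mostly on its highest member. In MIN6 cells that member was Sst for delta and PP cells (mean rank 96.2, list median 40.2). For ducts it was Krt7 (96.4, list median 39.8). The part of these markers in the results was not tested. Of the macrophage and leukocyte markers 2 of 5 higher and 3 lower. Among the endothelial markers 6 of 7 lay below rank 40 in both lines, and the remaining one was not called.

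The 12 largest differences in each direction were also listed without regard to the gene lists, and their order depends in part on the order of background probe sets in the line with the low rank. Higher in MIN6 cells were Bex1 (95.3 points), Sphkap, Scg5, Hepacam2, Akr1c13, Cltrn, Snap25, Nefm, Gcg, G6pc2, Meox2 and Nrcam (92.3 points). Cltrn encodes collectrin, which is known from beta cells and kidney, and Nrcam a neuronal adhesion protein. Meox2, a homeodomain factor of mesoderm, had 94.9, 95.2 and 96.4 in MIN6 cells and 3.83, 0.85 and 4.90 in SV40 MEFs, with 9.62 to 24.2 in primary MEF WT. Lower in MIN6 cells were Gja1, the connexin of fibroblast gap junctions (-95.1 points), Efemp1, Ahnak, Anxa1, Ifitm3, Ly75, Ankrd1, Vgll3, Gpx8, Prrx2, Rin1 and Ptgfrn (-84.8 points). Gja1 had 1.08, 0.94 and 0.83 in MIN6 cells and 96.2, 95.8 and 96.2 in SV40 MEFs.

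Chromatin genes had a smaller share of large differences than all genes tested. Of 281 listed, 261 had a probe set and 255 were tested, and 79 were higher and 142 lower in MIN6 cells. That is 86.7% called, against 83.7% of all genes, but 12 were large (4.7%), against 16.2% of all genes, and 7 of the large ones were higher and 5 lower. Of all genes tested, 38.4% were called higher and 45.2% lower. A count for a chromatin family below that lies near these shares says little of the family. The median size of a difference, sign aside, was 3.67 points for chromatin genes, 33.3 for lineage genes and 6.14 for all genes tested. The lineage lists were chosen for programmes known to differ between such cells, so their value is no yardstick for chromatin genes. The median of the gene means was 84.9 in MIN6 cells and 87.7 in SV40 MEFs for chromatin genes, and ranks near the top leave little room for a difference. Among genes whose higher mean of the 2 lines was 90 or above, 5 of 122 chromatin genes (4.1%) and 413 of all 3666 genes (11.3%) were large. Between 70 and 90, it was 4 of 105 chromatin genes (3.8%) and 933 of all 5435 genes (17.2%). Between 40 and 70, it was 3 of 28 chromatin genes (10.7%) and 920 of all 4876 genes (18.9%). The lists were not tested as sets.

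The direction of the small differences depends on the scale. On log2 intensity minus the array median, the median difference over all genes tested was -0.32, and 700 of the 11698 genes called on ranks had the opposite sign, all of them higher by rank and lower on the log2 scale. Among the 255 chromatin genes the median was -0.67 on the log2 scale and -1.38 points by rank, and 23 of the 221 called genes changed sign in this way. The 12 large differences kept their sign on the log2 scale.

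**Figure D4:**
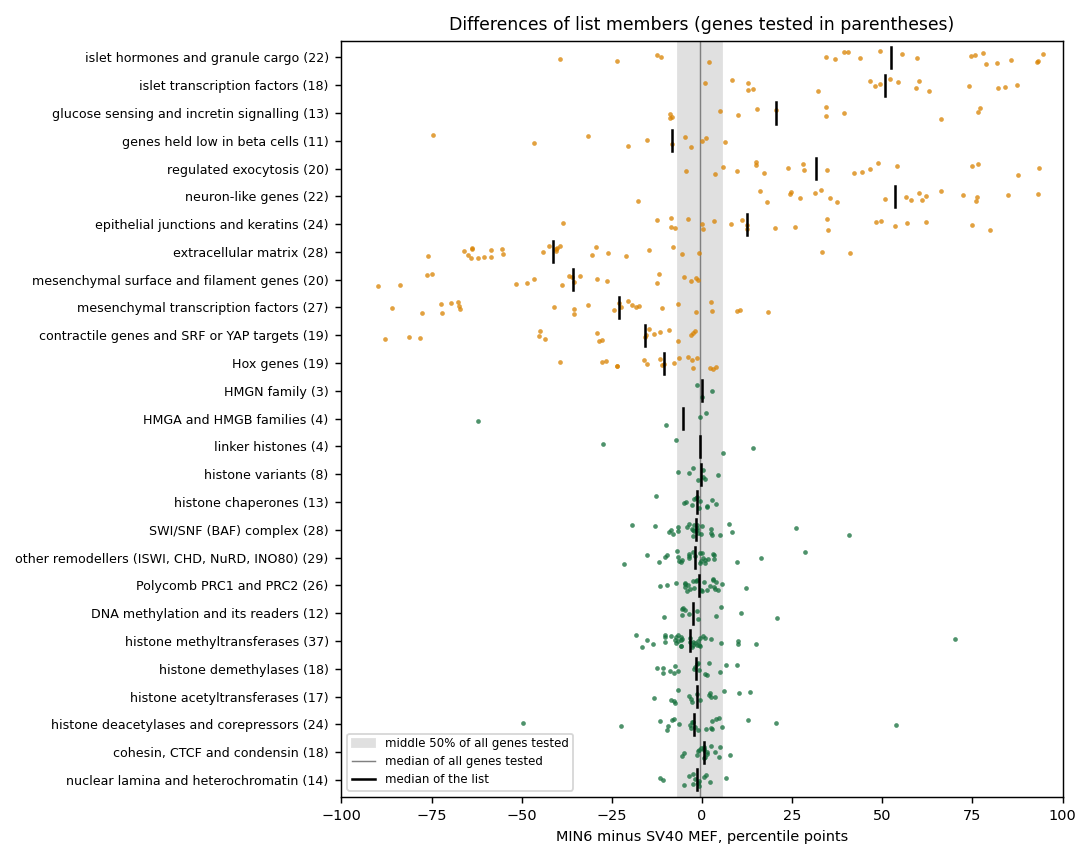
Difference between MIN6 cells and SV40 MEFs, in percentile points, for each tested member of the lineage lists (orange) and chromatin lists (green), with the list median as a black bar. The grey band holds the middle 50% of all genes tested and the grey line their median (-0.61). Members of the lineage lists reach 94.7 and -89.7 points, and those of the chromatin lists reach 70.2 and -62.0 points.

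The HMGN genes, whose proteins bind nucleosomes and are the subject of the series, were high in both lines. Hmgn1 had 99.5, 99.5 and 99.4 in MIN6 cells and 99.5, 99.6 and 99.6 in SV40 MEFs and was not called (-0.06 ± 0.08 points, adjusted p = 0.466). Hmgn3, the member known for high expression in islets and eye, had 97.6, 97.8 and 97.7 in MIN6 cells, 94.5, 94.8 and 95.4 in SV40 MEFs and 91.3 to 92.7 (median 92.2) in primary MEF WT. It was called higher (2.80 ± 0.23 points, limma adjusted p = 3.98e-06), with both probe sets in the same direction (2.80 and 6.15 points). Hmgn5 had 86.1, 89.5 and 90.4 in MIN6 cells and 89.6, 89.5 and 91.0 in SV40 MEFs and was not called (-1.38 ± 0.99 points, adjusted p = 0.223), while primary MEF WT ranged over 72.0 to 75.6 (median 73.9). Hmgn1 and Hmgn5 were both called lower in MIN6 cells on log2 intensity minus the array median, a scale that does not equalize the spread of the arrays. The differences were -1.28 for Hmgn1 (limma adjusted p = 8.52e-11) and -0.62 for Hmgn5 (limma adjusted p = 4.45e-04), where the median of all genes was -0.32. Neither was called on log2 values quantile normalized between the lines. No probe set with the single symbol Hmgn2 was used here.

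Hmga2, an AT-hook protein of embryonic and mesenchymal chromatin, was lower by a large difference. It had 39.9, 33.9 and 35.6 in MIN6 cells, 98.5, 98.5 and 98.5 in SV40 MEFs and 97.0 to 98.4 (median 97.9) in primary MEF WT (-62.0 ± 1.43 points, adjusted p = 1.55e-09), and all 4 probe sets were lower. Hmgb2 and Hmgb3, which encode DNA-bending proteins, differed by -0.65 ± 0.22 and 1.17 ± 0.21 points, and Hmgb3 had the opposite sign on the log2 scale. Among linker histones, H1f2 had 99.2 ± 0.11 in MIN6 cells and 85.0 ± 0.57 in SV40 MEFs, with probe sets from -17.2 to 19.2 points that disagree in sign, and H1f4 had 15.9, 15.7 and 15.2 against 42.3, 41.6 and 44.9 (-27.4 ± 1.82 points). H1f4 is uncertain, since near-identical histone copies can share probes and its MIN6 rank was in the background range, while primary MEF WT had 2.65 to 9.98 (median 3.96). The variants H2az1 and H2ax had means of 99.6 and 98.7 in MIN6 cells and 99.2 and 97.8 in SV40 MEFs, and both had the opposite sign on the log2 scale.

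In the SWI/SNF or BAF remodelling complex, 28 genes were tested, 8 higher and 16 lower in MIN6 cells, with 2 large differences, both higher. Actl6b and Smarca2 were those 2. Actl6b, the actin-like subunit that replaces Actl6a in neurons, had 76.4, 72.7 and 71.5 in MIN6 cells, 34.9, 30.6 and 32.9 in SV40 MEFs and 43.0 to 52.2 (median 45.8) in primary MEF WT (40.7 ± 1.62 points, adjusted p = 3.29e-08). Its paralog Actl6a had 90.2 ± 0.25 in MIN6 cells and 92.7 ± 0.32 in SV40 MEFs, 2.52 points lower. Smarca2 encodes BRM, one of 2 exchangeable ATPases, and had 85.5, 86.1 and 85.7 in MIN6 cells and 57.9, 59.5 and 61.6 in SV40 MEFs (26.1 ± 0.98 points), with both probe sets in this direction, and differed from primary MEF WT by 12.5 ± 0.51 points. The alternative ATPase gene Smarca4, which encodes BRG1, had 94.9 ± 0.27 and 96.3 ± 0.06 in the same order and was lower by 1.36 points. Smarcd1 and Smarcd3, exchangeable accessory subunits, were lower by 12.9 and 19.3 points. Dpf1, a subunit known from neural complexes, differed by -8.56 ± 0.74 points, and its 2 probe sets disagreed in sign (-8.56 and 7.87 points).

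Of 29 other remodeller genes tested, 6 were higher and 17 lower in MIN6 cells, with 1 large difference each way. Smarca1, an ISWI ATPase known from neurons, had 56.9, 62.2 and 62.4 in MIN6 cells, 33.6, 28.6 and 33.7 in SV40 MEFs and 53.4 to 62.4 (median 60.4) in primary MEF WT, with a large difference from SV40 MEFs (28.5 ± 1.99 points) and one of 1.60 ± 1.17 points from primary MEF WT that was not called (adjusted p = 0.211). Its paralog Smarca5 differed by -2.47 ± 0.19 points. Baz1a, a partner of ISWI in chromatin assembly, was lower (-21.6 ± 0.82 points), with 70.5, 72.8 and 74.0 in MIN6 cells and 93.5, 94.4 and 94.2 in SV40 MEFs, and differed from primary MEF WT by -18.2 ± 0.52 points. Of the CHD family, Chd9 was higher (16.4 ± 0.66 points) and Chd1 lower (-11.9 ± 0.62 points). The NuRD subunits Mta1 and Gatad2a were lower (-15.2 ± 0.43 and -10.1 ± 0.50 points).

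**Figure D5:**
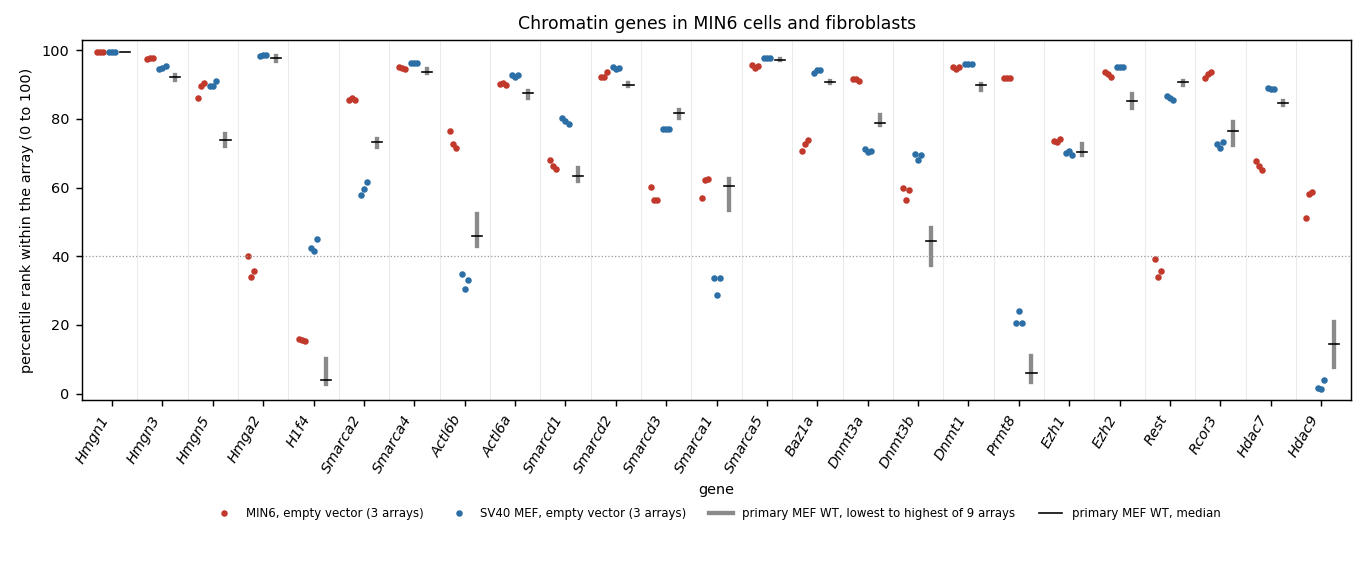
Percentile rank of 25 chromatin genes, with paralogs beside each other, in each MIN6 array, each SV40 MEF array and the 9 primary MEF WT arrays (bar from lowest to highest, line at the median). The dotted line marks rank 40. Hmga2 and Rest stand at or below that line in MIN6 cells and above 85 in both fibroblasts, while Prmt8 and Actl6b are higher in MIN6 cells.

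Polycomb genes showed 8 higher and 12 lower of 26 tested and no large difference (0). Against primary MEF WT the same list had 21 higher and 4 lower of 26, with 2 large differences, both higher, for Pcgf2 (25.8 ± 1.68 points) and Cbx7 (21.0 ± 0.97 points). The exchangeable methyltransferases Ezh2 and Ezh1 differed by -2.18 ± 0.35 and 3.59 ± 0.70 points, with probe sets of Ezh1 that disagree in sign, Jarid2, a cofactor of the same complex, by 12.2 ± 0.61 and Pcgf2, a RING partner, by -11.7 ± 1.13, opposite in sign to its difference from primary MEF WT. DNA methylation genes were led by Dnmt3a, a de novo methyltransferase, with 91.5, 91.7 and 90.9 in MIN6 cells and 71.2, 70.2 and 70.6 in SV40 MEFs (20.7 ± 0.52 points, all 5 probe sets higher). Primary MEF WT had 78.3 to 81.1 (median 78.9), and the difference from them was below 20 points (12.4 ± 0.48 points). The second de novo enzyme, Dnmt3b, was lower (-10.5 ± 1.10 points), and the maintenance enzyme Dnmt1 differed by -1.02 ± 0.16 points. Of 37 tested histone methyltransferase genes 27 were lower and 6 higher, and the large difference was that of Prmt8. Prmt8, an arginine methyltransferase known from brain and held at the plasma membrane, had 92.0, 92.0 and 91.8 in MIN6 cells and 20.7, 24.0 and 20.4 in SV40 MEFs (70.2 ± 1.15 points, adjusted p = 3.18e-10), with 3.48 to 11.1 (median 6.12) in primary MEF WT. The fibroblast ranks of Prmt8 lie in the background range, so the size of its difference counts in part the order of background probe sets. Carm1 and Smyd5 were lower by 16.7 and 18.3 points.

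Among 24 tested deacetylase and corepressor genes, 9 were higher and 13 lower, with 2 large differences each way. Hdac9, a class IIa deacetylase, had 51.1, 58.2 and 58.7 in MIN6 cells and 1.56, 1.18 and 3.94 in SV40 MEFs (53.8 ± 2.48 points). Hdac9 is uncertain, since its SV40 MEF ranks lie in the background range and its MIN6 ranks below the highest mean of the background list (61.5). Its class IIa relative Hdac7 had 67.9, 66.4 and 65.2 in MIN6 cells against 88.9, 88.8 and 88.7 in SV40 MEFs (-22.3 ± 0.76 points, and -18.2 ± 0.49 points from primary MEF WT). Hdac1 and Hdac3, class I enzymes, differed by -1.03 ± 0.14 and -2.96 ± 0.43 points. The acetyltransferases had 7 genes higher and 9 lower of 17, where all genes tested had 38.4% higher and 45.2% lower. Kat2a (-13.2 ± 0.46 points) and Ncoa1 (13.4 ± 0.47 points) were at the ends of this list. The demethylases had 5 higher and 10 lower of 18, from -12.3 ± 1.16 points for Kdm5a to 9.68 ± 0.78 for Kdm7a. Cohesin and condensin genes had 11 higher and 5 lower of 18, all within 8 points. Lmna, the lamin of differentiated cells, was lower, with 88.9, 87.4 and 87.3 in MIN6 cells and 98.8, 98.7 and 98.6 in SV40 MEFs (-10.8 ± 0.40 points).

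Proliferation genes were read beside the chromatin genes, since many chromatin genes follow the cell cycle. Of 24 replication genes 8 were higher and 14 lower in MIN6 cells, and of 23 tested mitosis genes 4 were higher and 15 lower, with no large difference in either list (0) and medians of -0.68 and -1.14 points. Against primary MEF WT both lists ran the other way, with 22 of 24 and 22 of 23 genes higher and medians of 7.86 and 9.50 points. The chromatin genes had 145 higher and 73 lower of 256 against primary MEF WT, a median of 1.85 points, and 9 large differences higher and 7 lower. The part of the replication and mitosis genes in these chromatin differences was not tested.

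Arrays that the comparison did not use were read for the same genes, 6 MIN6 arrays with an HMGN1 or HMGN3a construct and 21 SV40 MEF arrays with HMGN constructs. For all 12 chromatin genes with a large difference, every MIN6 construct array lay on the same side of every SV40 MEF construct array. The same held for 78 of 82 lineage genes that were higher and 69 of 73 that were lower, and for 95.7% and 97.2% of all genes with a large difference. The exceptions among lineage genes were Sst, Rab3c, Stmn2 and Fbln5 of the higher ones, and Six2, Tbx2, Timp3 and Hoxb13 of the lower ones.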

How the data were processed

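RNA from 51 samples was hybridised to mouse genome expression arrays with probe sets. Per the submitters' processing notes the arrays were processed with RMA, and the deposited values are linear intensities. From these, each array was turned into percentile ranks over 45037 probe sets, after 64 control probe sets were left out. Of the ranked probe sets, 34945 had 1 gene symbol, 932 several and 9160 none in the platform annotation. Each gene was represented by its probe set with the highest mean, and genes below the 40th percentile in both groups were left out. Ranks were tested with limma 3.58.1 in R 4.3.3 (lmFit, then eBayes with a mean-variance trend) with Benjamini-Hochberg adjustment. The number of arrays, 3 per group, limits the precision.

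The members and lists were chosen with earlier results of these data known. Genes named are the Hmgn genes, the 12 largest differences each way, and up to 8 members with the largest differences per list, with textbook markers and alternative paralogs. Other named genes were chosen after their values were seen. In a simulation of the first comparison, 200 of 13977 genes were changed. The fit recovered 94% of 2-fold and 99% of 4-fold changes, with 1.53% of calls false. In the data 83.7% of genes were called, so these shares do not carry over to the 11698 calls made here. Alternatives changed the scale, the filter, the probe set rule, the arrays fitted, the spread model and the replicates used. Promoter windows were read from RefSeq tables. Same-numbered arrays of both lines had deviations that correlated at 0.087, -0.004 and 0.101, so the numbers were not taken as pairs.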

Additional observations from a re-analysis of the deposited data

How the results depend on the processing

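In the comparison of MIN6 cells with SV40 MEFs, 11698 genes were called, and the alternatives gave 9432 (filter at the 60th percentile) to 13640 (no filter). Leaving out 1 array at a time gave 11283 to 11761 genes, and the fit with a replicate block gave 11736. Against primary MEF WT, 12600 genes were called, with 14559 without a filter, 12550 with a replicate block and 12302 to 12591 without 1 array. Of 4004 alternative values computed for the genes named in the text, 3961 were counted as unchanged, 26 fell below the threshold, 8 passed it and 9 reversed. Reversed means a changed sign in a result called in the main or the alternative fit. A result called in neither fit was counted as unchanged whatever its sign. All 9 reversals came with log2 intensity minus the array median, where the median over all genes tested was -0.32 in the first comparison. With log2 values quantile normalized between the lines, all 128 named results against SV40 MEFs kept their side of the threshold and 0 reversed. Against SV40 MEFs the log2 differences were -0.21 for H2ax, -0.59 for H2az1 and -0.26 for Hmgb3. Against primary MEF WT they were -0.35 for Actl6a, -0.43 for Chd9, -0.94 for Cpe, -0.23 for H1f2, -1.35 for Ldha and -0.73 for Smarca4. The cause was not tested. Signal over background limits genes with ranks below 40, and ranks near 100 leave small differences unresolved.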
